A study of Mus musculus with 8 samples.

Results

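The proteasome is the protease that degrades proteins tagged with ubiquitin, and the values below describe the mRNA of its subunits in spermatogonia with and without Kdm1a. Genes were taken from the deposited expression table by symbol, as Psma, Psmb, Psmc, Psmd, Psme, Psmf or Psmg followed by a number. Of 50 symbols that matched, 3 pseudogene entries were left out: Psme2b-ps, at 1.27 to 2.26 FPKM, and Psmb7-ps2 and Psmb6-ps, both below 0.45 FPKM in every library. The other 47 genes, of 17589 in the table, all averaged 1 FPKM or more across libraries, so none was lost to the filter on low values. By known role 46 are proteasome genes. The remaining gene, Psmc3ip, carries a proteasome-like symbol but encodes a cofactor of meiotic recombination, and it is described separately. Psmb8 and Psmb11, a subunit of the immunoproteasome and a subunit of the thymus proteasome, are not analysed here.

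The libraries came from C57BL/6 mice carrying GOF/deltaPE-Oct4/GFP, a reporter in which Oct4 regulatory sequence drives GFP in primitive germ cells, and testes were taken at 6 days after birth. GFP-positive cells were collected by fluorescence-activated sorting, and there were 4 libraries labelled as control and 4 labelled as knockout of KDM1A, a demethylase of histone H3. The labels' protocol calls the mutant a conditional knockout; its Cre driver, the deleted exons and the alleles of the controls are not stated in the labels used here. The labels do not say that the libraries came from separate animals, so p-values speak only of the spread among these samples, and that spread may be technical. Values are FPKM, that is, fragments per kilobase of transcript relative to the library's total, summed over the transcript entries of a gene.

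The complete proteasome joins a barrel-shaped core to regulatory caps. The core stacks rings of alpha subunits, which gate the entrance, around rings of beta subunits, of which Psmb5, Psmb6 and Psmb7 carry the cutting sites. The cap has a base, with the ATPases Psmc1 to Psmc6 that unfold substrates and the scaffolds Psmd1 and Psmd2, and a lid that holds the ubiquitin-removing enzyme Psmd14. Immune cells and cells exposed to interferon replace the cutting subunits by Psmb8, Psmb9 and Psmb10, and male germ cells in meiosis replace the alpha subunit Psma7 by Psma8. Proteasome genes are known to be expressed coordinately. The transcription factor Nfe2l1 is known to raise them together when proteasome activity falls.

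To show what letters the 47 genes, Psmc3ip included, share near their starts, 3 motifs were searched for on both strands. The search covered the 250 bases before each RefSeq start (GRCm38.p6, the build of mm10). Promoter entries were found for 39 of the 47 genes, with 42 starts in all; no entry was matched for Psma8, Psmb1, Psmb2, Psmb7, Psmc3, Psmd3, Psmd7 and Psmg2. The ETS factor core CCGGAAG stood in 14 of the 42 starts, 33.3%, against 6.91% of all 32851 starts in the table. The 14 include Psmc3ip, and separate starts of Psmc2 were each counted. The CCAAT box stood in 33.3% of the members' starts and in 33.8% of all. The antioxidant response element core TGACNNNGC, the kind of element that Nfe2l1 and Nfe2l2 bind, stood in 11.9% and 10.2%. The motifs were chosen with the expression values known, they share no bases in the windows below, and a match describes the letters and not a bound site. The windows shown belong to 4 genes that rose in the knockout (Psma1, Psma6, Psmc6 and Psmd10), to the lid gene Psmd11, which was lower under several scalings, and to the catalytic subunit gene Psmb6 for the antioxidant element. Each is written 5′ to 3′ on the gene's strand, with the motif in capitals; a further CCAAT of Psmd10, 24 bases before the start, is in lower case.
Psma1, chr7:114276185-114276239, minus strand, CCAAT 98 bases before the start: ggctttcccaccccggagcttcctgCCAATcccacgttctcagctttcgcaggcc
Psma6, chr12:55398668-55398724, plus strand, ETS core 132 bases before the inner of its RefSeq starts: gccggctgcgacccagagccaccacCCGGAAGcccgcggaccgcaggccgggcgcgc
Psmc6, chr14:45329699-45329755, plus strand, ETS core 100 bases before the start: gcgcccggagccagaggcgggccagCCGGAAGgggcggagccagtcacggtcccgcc
Psmd10, chrX:140956729-140956783, minus strand, CCAAT on the opposite strand 47 bases before the start: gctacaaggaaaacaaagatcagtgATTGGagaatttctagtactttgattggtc
Psmd11, chr11:80428579-80428614, plus strand, ETS core on the opposite strand 11 bases before the start: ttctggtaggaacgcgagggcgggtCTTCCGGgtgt
Psmb6, chr11:70525323-70525356, plus strand, antioxidant element core 9 bases before the start: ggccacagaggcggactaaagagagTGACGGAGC
None of these 6 windows overlapped an exon of the GENCODE M21 annotation.

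Kdm1a itself was at 53.7, 54.0, 92.0 and 48.1 FPKM in control replicates 1 to 4 and at 14.2, 14.1, 17.3 and 14.9 in knockout replicates 1 to 4, 4.10-fold lower (log2 change -1.92, SE 0.18, adjusted p = 6.88e-05). Depth, inferred from the steps between low values, ranged from 60500000 to 67250000 fragments for controls and from 45000000 to 63250000 for knockouts. Sums over germ cell markers were 832.6 to 913.6 FPKM for controls and 783.5 to 830.0 for knockouts, and Ddx4, a helicase of germ cells, was at 197.8 ± 16.8 and 186.6 ± 4.06. None of 7 germ cell markers rose and 2 fell: Zbtb16, a factor of undifferentiated spermatogonia, went from 61.2 ± 7.62 to 22.3 ± 7.21 FPKM (adjusted p = 0.000890), and Sall4, another factor of these cells, from 76.4 ± 5.06 to 46.4 ± 8.94 (adjusted p = 0.00175). Meiotic prophase markers, of which 6 of 7 rose, summed to 373.3 to 389.8 and 630.3 to 787.3. Of all genes tested, 25.3% rose and 12.1% fell. Sertoli markers summed to 13.3 to 41.2 and 18.3 to 45.6 FPKM, with a median log2 change of 0.53 and 0 of 5 tested called. Control replicate 1 was the highest control for every Sertoli marker, and knockout replicate 2 had the lowest knockout sum. Peritubular markers summed to 3.83 to 6.43 and 4.71 to 7.06 with 0 of 2 called. The only leucocyte marker in the table, Cd68, was at 1.40 to 2.36 and 1.14 to 2.28. The only Leydig cell marker, Star, was at 1.24 to 2.16 and 1.23 to 1.83, and the erythroid markers summed to 0.282 to 0.760 and 1.60 to 2.50. Endothelial markers summed to 3.98 to 5.62 and 11.2 to 12.1, with Tek and Pecam1 risen, Cdh5 on average at 1.86 and 2.08, and Kdr at 0.811 and 0.833. The part of any of these differences in the values below was not tested.

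Knockout replicate 2 stood apart from the other knockouts, and proteasome genes were among those that were high in it. It had the highest value of the 8 libraries in 39 of 47 members, against 37.0% of all genes tested, and it exceeded the mean of the other knockouts in 42 of 47 members, against 55.8% of all genes. The median difference from the other knockouts, on the log2(FPKM + 1) scale, was 0.49 over the members and 0.07 over all genes. The gap went down with transcript length, and in every length class it was larger for the members than for all genes. By length of the main transcript entry, it was 0.58 for 9 members and 0.40 for all genes under 1000 bases, 0.50 for 29 members and 0.28 from 1000 bases to under 2000, 0.27 for 6 members and 0.09 from 2000 bases to under 3000, and -0.11 for 3 members and -0.20 at 3000 bases or more. Members are short, with a median main entry of 1384 bases against 2417, and 38 of the 47 are under 2000 bases. Knockout replicate 2 also had the lowest inferred depth, at 45000000 fragments. Its FPKM total without small RNAs was the highest, at 575559 against 391908 to 438545 in the other libraries. The part of length, depth or total in its high values was not tested. The changes of the members described below are given with and without this library.

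**Figure D1:**
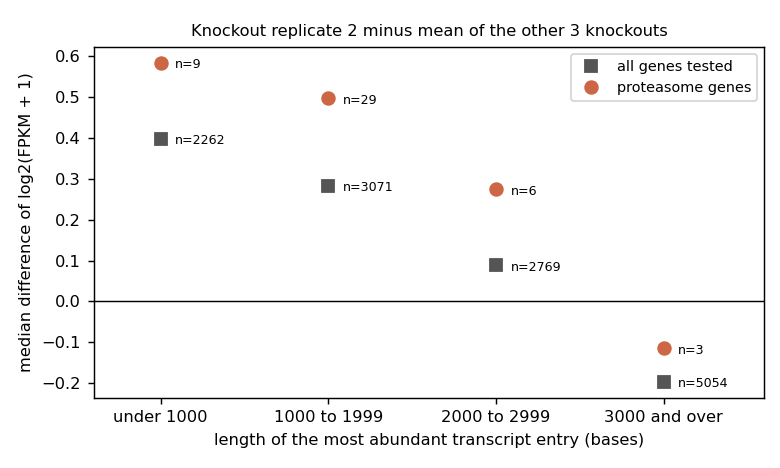
Median difference of log2(FPKM + 1) between knockout replicate 2 and the mean of the other 3 knockouts (vertical axis) by length of the gene's most abundant transcript entry in bases (horizontal axis), for all genes tested (squares) and the 47 members (circles), with the number of genes beside each point. Both series go down with length, from 0.40 to -0.20 for all genes and from 0.58 to -0.11 for the members.

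With all 8 libraries and the FPKM as deposited, most proteasome genes were not called different between the groups, and the few that were called were higher in the knockout. By limma with adjustment over all 13483 genes tested, 8 of the 47 members rose, 0 fell and 39 were not called, where 25.3% of all genes rose and 12.1% fell. The 8 that rose, 17.0% of the members, were Psma8, Psmd10, Psmg2, Psma6, Psma1, Psmc6, Psmd3 and Psmd6. At an unadjusted p under 0.05, 12 members were higher and 2, Psmd7 and Psmd11, were lower, against 31.0% and 16% of all genes. The 4 knockout values all lay above the 4 control values in 9 members, the 8 called and Psmc3ip, and all below in 2, Psmd2 and Psme3, against 26.1% and 12.5% of all genes.

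The median log2 change of the members was 0.12, against 0.09 over all genes, and neither value was stable to scaling. Median-ratio scaling, which sets the median gene of each library to that of the average library, moved the median of all genes to -0.01 and that of the members to 0.01, with 6 members risen and 4 fallen (Psmd2, Psmd7, Psmd11 and Psme3). Of all genes, 19.5% rose and 18.2% fell with that scaling. Scaling to equal FPKM totals moved the medians to 0.74 and 0.82, with 42 members risen and 0 fallen, where 70.8% of all genes rose and 1.12% fell. These totals were 1067254 to 1767024 in controls and 700953 to 1106723 in knockouts. Most of each control total came from small RNAs, without which the totals were 391908 to 437767 and 404244 to 575559. With small RNAs removed and libraries rescaled, the median of all genes was -0.02. Without knockout replicate 2 the same 8 members rose and 3 fell (Psmd7, Psmd11 and Psmb10), against 28.6% and 15% of all genes, and the median of the members was 0.03 against 0.08. Without that library and with median-ratio scaling, 6 members rose and 13 fell, where 23.1% of all genes rose and 21.7% fell. The 6 were Psma8, Psmd10, Psmg2, Psma6, Psma1 and Psmc6. The 13 were 4 core subunits (Psma5, Psmb3, Psmb5 and Psmb7), Psmb10, 3 ATPases (Psmc3, Psmc4 and Psmc5), Psmd2, the lid subunits Psmd7 and Psmd11, Psme3 and Psmd9.

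**Figure D2:**
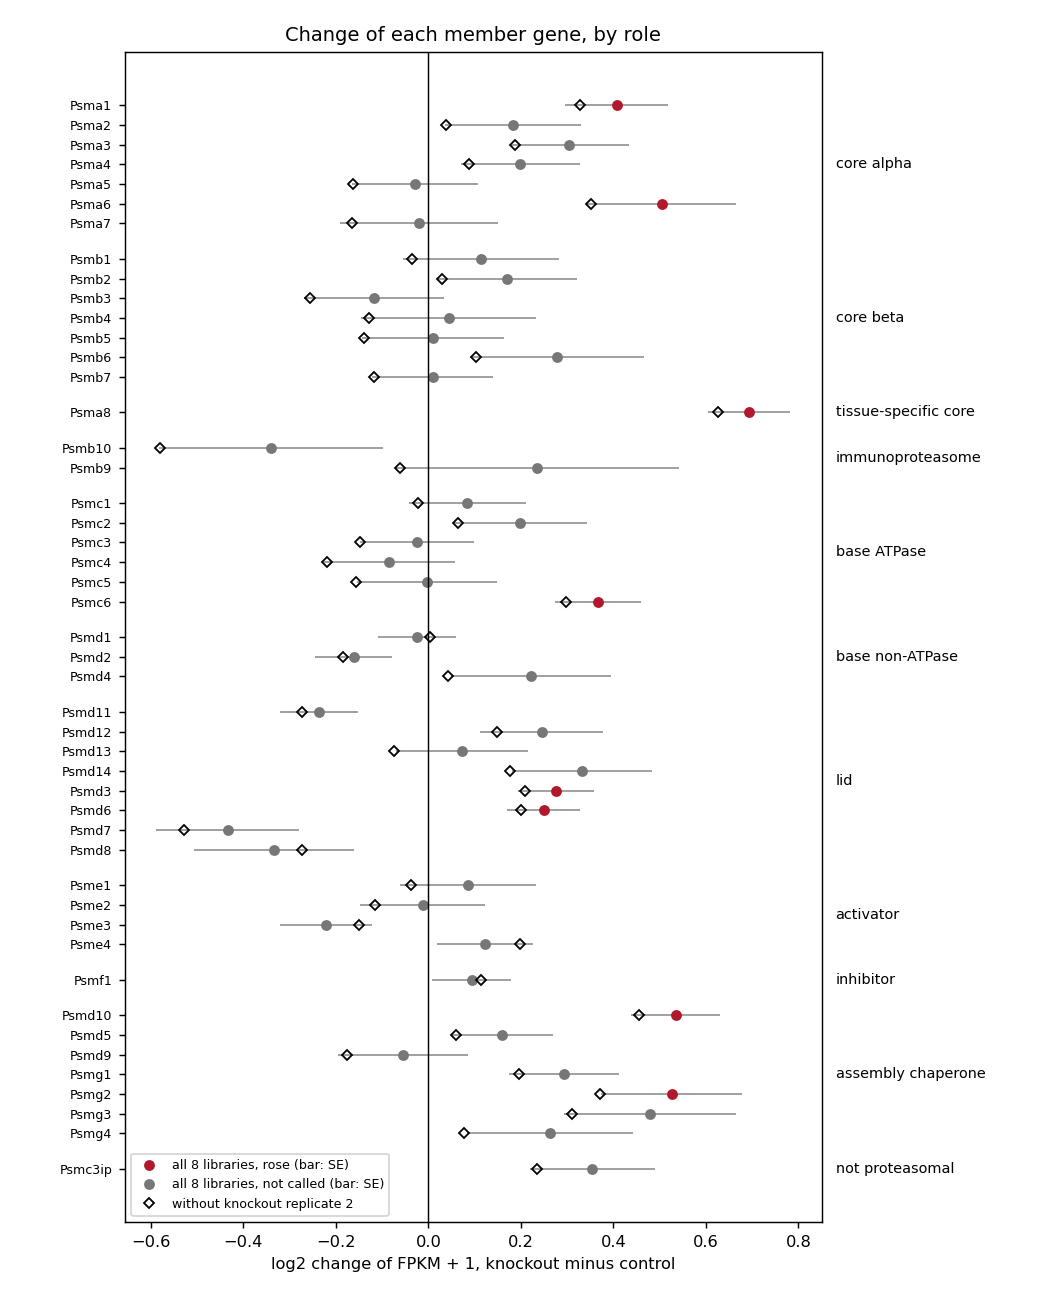
Change of log2(FPKM + 1), knockout minus control, of each of the 47 members (horizontal axis), ordered by role, with bars for the standard error, red points for genes that rose and grey for those not called; open diamonds give the change without knockout replicate 2. Psma8 has the highest value, 0.69, and Psmd7 the lowest, -0.43, and most diamonds lie to the left of the filled points.

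With the FPKM as deposited, the groups did not separate by the sum of proteasome mRNA. That sum depends on scaling. With equal FPKM totals, 41 of the 46 proteasome genes rose, where 70.8% of all genes did. The 46 proteasome genes summed to 4914, 4803, 5576 and 5757 FPKM in control replicates 1 to 4 and to 5025, 7229, 5449.8 and 5116 in knockout replicates 1 to 4. Their ranges overlapped, and knockout replicate 2 alone lay above all controls. Shares within that sum, which library scaling does not alter, overlapped between the groups for some roles and not for others. Alpha subunits took 20.7% ± 0.280 (SD, n = 4) of the sum in controls and 22.4% ± 0.349 in knockouts, and assembly chaperones 4.90% ± 0.0497 and 5.74% ± 0.111. Neither pair of ranges overlapped, at 20.4% to 21.01% against 22.0% to 22.9%, and at 4.85% to 4.96% against 5.63% to 5.89%. Psma8 took 0.384% to 0.443% in control libraries and 0.562% to 0.662% in the knockouts, also without overlap. The share of the activators was lower in every knockout than in every control, at 8.13% to 8.83% against 6.48% to 8.07%, with knockout replicate 2 the lowest and the other knockouts at 7.99% to 8.07%. The ranges overlapped for the other roles, among them the constitutive beta subunits at 25.8% to 28.3% and 25.9% to 28.9%, the base ATPases at 14.6% to 15.1% and 14.3% to 14.97%, and the lid at 12.4% to 12.9% and 11.7% to 12.7%. Leaving out knockout replicate 2 leaves the knockouts at 22.0% to 22.4% for the alpha subunits, 5.63% to 5.76% for the chaperones and 0.628% to 0.662% for Psma8, still apart from the controls. These shares were not tested, since they are sums over chosen genes. The alpha share includes the called genes Psma6 and Psma1, and the chaperone share the called genes Psmd10 and Psmg2. Shares without these genes were not computed. Among all single genes, knockouts lay wholly above controls in 26.1% and wholly below in 12.5%.

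**Figure D3:**
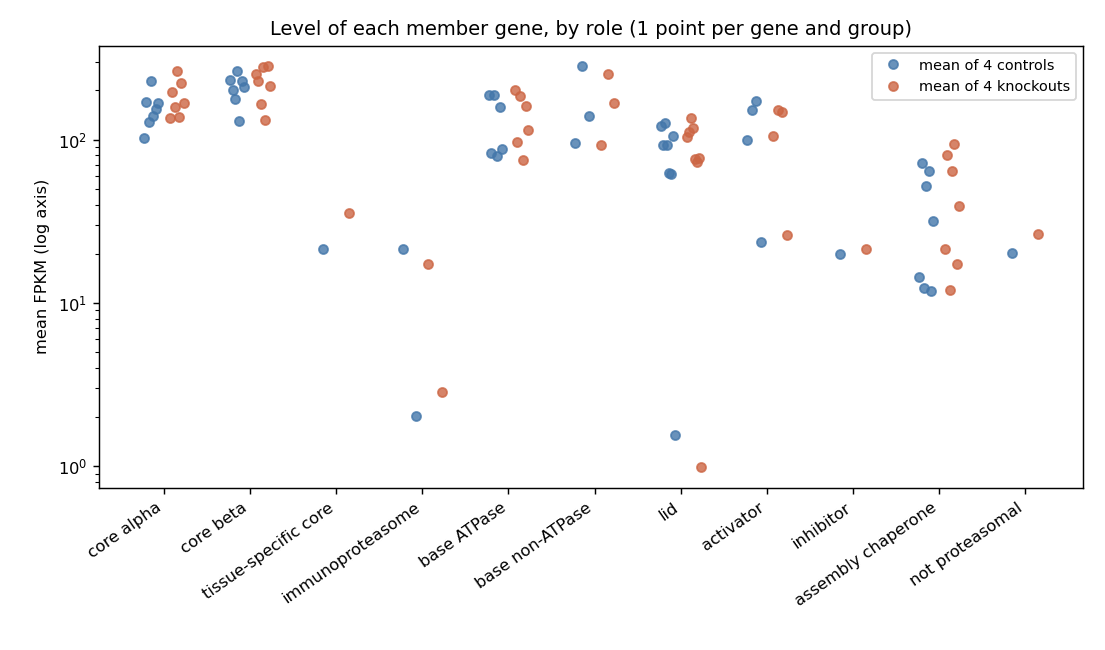
Mean FPKM (log axis) of each of the 47 members, by role, in the 4 controls (blue) and the 4 knockouts (orange), 1 point per gene and group. The constitutive core genes lie close together above 100, the immunoproteasome, Psma8 and the inhibitor lie lower, and the low lid gene is Psmd8.

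Among the constitutive core subunits, 2 alpha genes rose and no beta gene was called, where 25.3% of all genes rose and 12.1% fell. Control means of the 14 genes spanned 2.59-fold, from 102.0 FPKM for Psma1 to 264.1 for Psmb4. Within the alpha ring the highest was Psma4, at 228.3, and the beta genes ran from 129.2 for Psmb5, the chymotrypsin-like catalytic subunit, to Psmb4. Median log2 changes were 0.20 for the 7 alpha genes and 0.04 for the 7 beta genes, and 0.08 and -0.07 with median-ratio scaling. Without knockout replicate 2 they were 0.09 and -0.12.

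Psma6, an alpha ring subunit (ENSMUSG00000021024, chr12:55384222-55418454 in mm10), was at 136.0, 137.9, 170.4 and 173.4 FPKM in the controls and at 191.6, 300.5, 207.9 and 189.0 in the knockouts. All knockouts lay above all controls, and knockout replicate 2 was far above the rest. The means were 154.4 ± 20.2 and 222.3 ± 52.8 (SD, n = 4), 1.44-fold higher in the knockout (log2 change 0.50, SE 0.16, adjusted p = 0.0347), and without knockout replicate 2 the log2 change was 0.35 (adjusted p = 0.0246). The call was lost without control replicate 1 or 2 or without knockout replicate 3, at adjusted p of 0.0655 to 0.0944.

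Psma1, another alpha subunit (ENSMUSG00000030751, chr7:114264606-114276118), was at 97.3, 89.7, 104.2 and 116.6 FPKM in the controls and at 124.1, 159.4, 128.3 and 130.3 in the knockouts. The groups did not overlap, and the 3 knockouts other than replicate 2 lay close together. It rose 1.33-fold, from 102.0 ± 11.4 to 135.5 ± 16.1 (log2 change 0.41, SE 0.11, adjusted p = 0.0178; 0.33 and 0.0172 without knockout replicate 2). Leaving out control replicate 1 moved the adjusted p to 0.0505.

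The other 5 alpha genes and the 7 beta genes had log2 changes from -0.12 (Psmb3, a structural beta subunit) to 0.30 (Psma3, an alpha subunit), and their groups overlapped; without knockout replicate 2 they ran from -0.26 (Psmb3) to 0.19 (Psma3), and none was called. Psma3 was at 127.7 ± 13.0 and 159.1 ± 28.3 FPKM (adjusted p = 0.0919). Psma7, the alpha subunit that Psma8 replaces, was at 133.9, 152.4, 188.7 and 196.4 FPKM in the controls and at 144.3, 222.0, 154.5 and 144.7 in the knockouts (log2 change -0.02, SE 0.17, adjusted p = 0.940; -0.17 and 0.335 without knockout replicate 2). Among the cutting subunits, Psmb5 had a log2 change of 0.01, Psmb7 of 0.01 and Psmb6 of 0.28 (adjusted p = 0.967, 0.964 and 0.276), and without knockout replicate 2 of -0.14, -0.12 and 0.10.

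Psma8, the alpha subunit of the spermatoproteasome, which meiotic germ cells need, showed the largest rise of any member. Its FPKM was 21.8, 19.4, 22.5 and 22.1 in the controls and 33.3, 40.6, 34.2 and 33.3 in the knockouts. Every knockout lay well above every control, and each group was tight apart from the higher knockout replicate 2. The means were 21.4 ± 1.38 and 35.4 ± 3.54, a 1.65-fold rise (log2 change 0.69, SE 0.09, adjusted p = 0.000372), and the gene stayed called in every alternative run, with a log2 change of 0.63 (adjusted p = 0.000182) without knockout replicate 2. The meiotic marker sums given above were also higher in the knockouts, and their part in this rise was not tested. In bulk libraries, more cells that express a gene and more RNA per cell cannot be told apart.

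Against its counterpart Psma7, Psma8 was at 16.3%, 12.7%, 11.9% and 11.3% in the controls and at 23.1%, 18.3%, 22.1% and 23.0% in the knockouts. The groups did not overlap; the lowest knockout was replicate 2 and the highest control was replicate 1. The ratio went from 13.0% ± 2.24 to 21.6% ± 2.26 (SD, n = 4), a log2 difference of 0.74. An exact two-sided permutation test gave p = 0.0286, the smallest that 70 assignments of 4 against 4 libraries allow, and 0.0857 after adjustment over the 3 ratios computed. Without knockout replicate 2 the log2 difference was 0.81. As a share of Psma7 and Psma8 together, Psma8 made up 10.1% to 14.0% in control libraries and 15.5% to 18.7% in the knockouts.

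**Figure D4:**
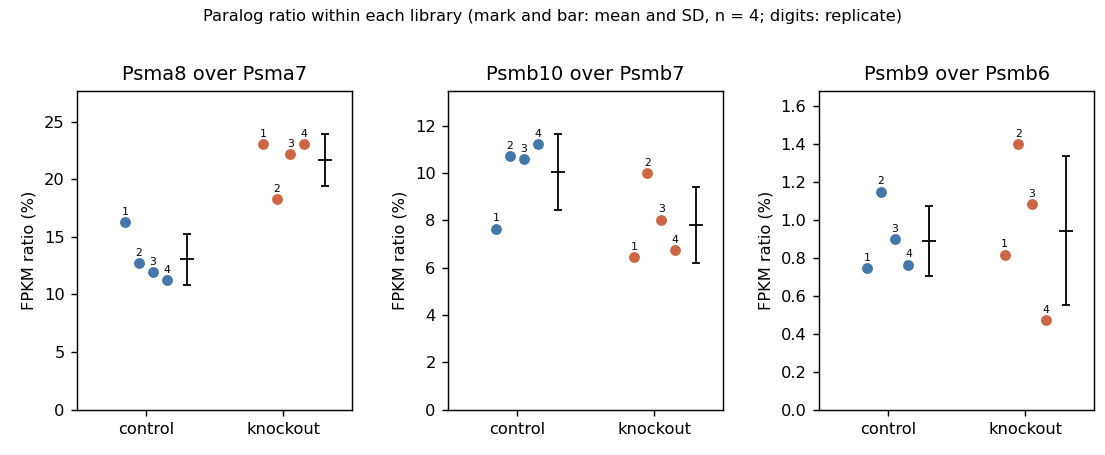
Ratio of FPKM within each library, in percent, of Psma8 to Psma7, Psmb10 to Psmb7 and Psmb9 to Psmb6, with points for libraries marked by replicate number and marks and bars for mean and SD (n = 4 per group). The Psma8 ratio lies between 11.3% and 16.3% in the controls and between 18.3% and 23.1% in the knockouts, while the ranges overlap for the other ratios.

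The immunoproteasome subunits were low beside the constitutive subunits they replace, and neither was called. Psmb9 (chr17:34181987-34187764) was at 1.37, 2.41, 2.32 and 1.97 FPKM in the controls and at 1.92, 5.52, 2.88 and 1.07 in the knockouts (log2 change 0.23, SE 0.31, adjusted p = 0.580). The knockouts spread on both sides of the controls. Without knockout replicate 2 its log2 change was -0.06 (adjusted p = 0.839). Set against its counterpart Psmb6, it was at 0.744% to 1.15% in control libraries and 0.472% to 1.40% in the knockouts (log2 difference -0.01, exact permutation p = 1.0, 4 against 4), with a log2 difference of -0.22 without knockout replicate 2.

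Psmb10 (chr8:105935735-105938444) was at 15.6, 20.6, 23.7 and 25.04 FPKM in the controls and at 12.6, 27.5, 16.1 and 12.5 in the knockouts. The 3 knockouts other than replicate 2 lay below the lowest control or just above it, and replicate 2 lay above all of them. The log2 change was -0.34 (SE 0.24, adjusted p = 0.301), but without knockout replicate 2 it was -0.58 and the gene fell (adjusted p = 0.0181). Its ratio to Psmb7 was 7.65%, 10.7%, 10.6% and 11.2% in the controls and 6.46%, 9.98%, 8.03% and 6.75% in the knockouts, with overlapping ranges (10.0% ± 1.62 and 7.80% ± 1.61, log2 difference -0.37, exact permutation p = 0.0857, adjusted 0.129), and without knockout replicate 2 its log2 difference was -0.49.

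In the base of the cap, 1 of 6 ATPase genes rose and none of the 3 other base genes was called. Of all genes, 25.3% rose and 12.1% fell. Control means of the ATPases ran from 78.7 FPKM for Psmc4 to 188.4 for Psmc1, and those of the others from 94.9 for the scaffold Psmd1 to 283.8 for the scaffold Psmd2, the highest mean of any member in the controls. Psmc6, an ATPase subunit (ENSMUSG00000021832, chr14:45329788-45349705), was at 87.3, 80.5, 89.6 and 94.3 FPKM in the controls and at 103.2, 131.3, 112.1 and 109.4 in the knockouts. The groups did not overlap, and the gene rose 1.30-fold, from 87.9 ± 5.74 to 114.0 ± 12.1 (log2 change 0.37, SE 0.09, adjusted p = 0.0131; 0.30 and 0.00884 without knockout replicate 2).

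The other 5 ATPases had log2 changes from -0.08 (Psmc4) to 0.20 (Psmc2), and their groups overlapped; without knockout replicate 2 they ran from -0.22 (Psmc4) to 0.06 (Psmc2), and none was called. The median over the 6 ATPases was 0.04, and -0.07 with median-ratio scaling. Psmd2 was at 310.9, 275.4, 279.7 and 269.0 FPKM in the controls and at 250.1, 265.7, 251.4 and 246.1 in the knockouts. All knockouts lay just below all controls. The difference did not pass the threshold (log2 change -0.16, SE 0.08, adjusted p = 0.159; -0.18 and 0.0673 without knockout replicate 2) and passed it with median-ratio scaling (adjusted p = 0.0194). With equal FPKM totals, where the median of all genes was 0.74, Psmd2 rose instead (log2 change 0.56, adjusted p = 0.0460). Psmd4, a ubiquitin receptor, and Psmd1 had log2 changes of 0.22 and -0.02 (adjusted p = 0.342 and 0.841), and of 0.04 and 0.00 without knockout replicate 2.

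In the lid, 2 of 8 genes rose and none was called lower with all 8 libraries, where 25.3% of all genes rose and 12.1% fell. Leaving aside Psmd8, control means ran from 61.1 FPKM for Psmd6 to 127.1 for Psmd13. Psmd3, a structural subunit (ENSMUSG00000017221, chr11:98682554-98695979), was at 63.1, 61.6, 61.0 and 62.3 FPKM in the controls and at 69.1, 86.9, 73.2 and 73.1 in the knockouts. The controls agreed closely and all knockouts lay above them. It rose 1.22-fold, from 62.0 ± 0.901 to 75.6 ± 7.76 (log2 change 0.28, SE 0.08, adjusted p = 0.0266; 0.21 and 0.0140 without knockout replicate 2).

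Psmd6, also structural (ENSMUSG00000021737, chr14:14112174-14120984), was at 60.4, 56.9, 65.0 and 62.2 FPKM in the controls and at 69.6, 80.8, 69.9 and 71.5 in the knockouts. The groups did not overlap, with a rise of 1.19-fold from 61.1 ± 3.40 to 72.9 ± 5.30 (log2 change 0.25, SE 0.08, adjusted p = 0.0327; 0.20 and 0.0298 without knockout replicate 2). Both calls were lost with median-ratio scaling (adjusted p = 0.102 for Psmd3 and 0.114 for Psmd6). They were also lost when single libraries were left out, in 6 of 8 cases for Psmd3 (all but knockout replicates 1 and 2, adjusted p = 0.0508 to 0.0701) and in 5 of 8 for Psmd6 (control replicates 1, 2 and 4 and knockout replicates 3 and 4, adjusted p = 0.0562 to 0.0811).

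Psmd7, the partner subunit of the ubiquitin-removing enzyme Psmd14 (ENSMUSG00000039067, chr8:107580381-107588464), had the most negative log2 change of any member with all 8 libraries. It was at 94.3, 82.0, 114.2 and 130.2 FPKM in the controls and at 67.4, 93.1, 72.2 and 75.3 in the knockouts. Only knockout replicate 2 reached into the control range. The means were 105.2 ± 21.3 and 77.0 ± 11.2, 1.37-fold lower, and just missed the threshold (log2 change -0.43, SE 0.15, adjusted p = 0.0515). Without knockout replicate 2 the gene fell (log2 change -0.53, adjusted p = 0.0171), as it did with median-ratio scaling (-0.55, adjusted p = 0.0103). With equal FPKM totals its log2 change was 0.28 and it was not called (adjusted p = 0.301). Psmd14 itself was at 92.2 ± 9.60 and 118.0 ± 28.3 FPKM (log2 change 0.33, SE 0.15, adjusted p = 0.115; 0.18 and 0.127 without knockout replicate 2).

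Psmd11, a structural subunit (ENSMUSG00000017428, chr11:80428615-80473248), was at 121.1, 108.8, 127.8 and 129.1 FPKM in the controls and at 101.0, 111.4, 96.6 and 103.3 in the knockouts. Again knockout replicate 2 alone overlapped the controls. The log2 change was -0.24 (SE 0.08, adjusted p = 0.0519), -0.27 (adjusted p = 0.0169) without knockout replicate 2 and -0.35 (adjusted p = 0.00338) with median-ratio scaling. With equal FPKM totals it was 0.48 and the gene was not called (adjusted p = 0.0780).

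The 12 transcript entries of Psmd11 did not move alike. The most abundant, a protein-coding entry of 1626 bases, was at 44.5, 42.4, 46.7 and 43.9 FPKM in the controls and at 36.0, 20.7, 26.0 and 30.0 in the knockouts. Its groups did not overlap, and in the fit of each gene's most abundant entry it fell by 0.66 on the log2 scale (adjusted p = 0.00838). The entry of 796 bases was at 32.7 ± 4.34 and 25.2 ± 5.12, and that of 2848 bases was higher in the knockout, at 26.1 ± 1.35 and 31.2 ± 2.73. The split of fragments between entries that share exons is an estimate of the authors' software, and these last values were not tested.

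Psmd8, a further lid subunit, was at 0.863, 1.48, 2.39 and 1.44 FPKM in the controls and at 0.958, 0.744, 1.25 and 0.973 in the knockouts (log2 change -0.33, SE 0.17, adjusted p = 0.159; -0.27 and 0.255 without knockout replicate 2). The other 16 genes of base and lid had control means of 61.1 to 283.8 FPKM. Psmd8 is represented by a single entry of 1540 bases, and which fragments were assigned to it was not tested. These values may therefore not give the level or the change of the whole gene.

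**Figure D5:**
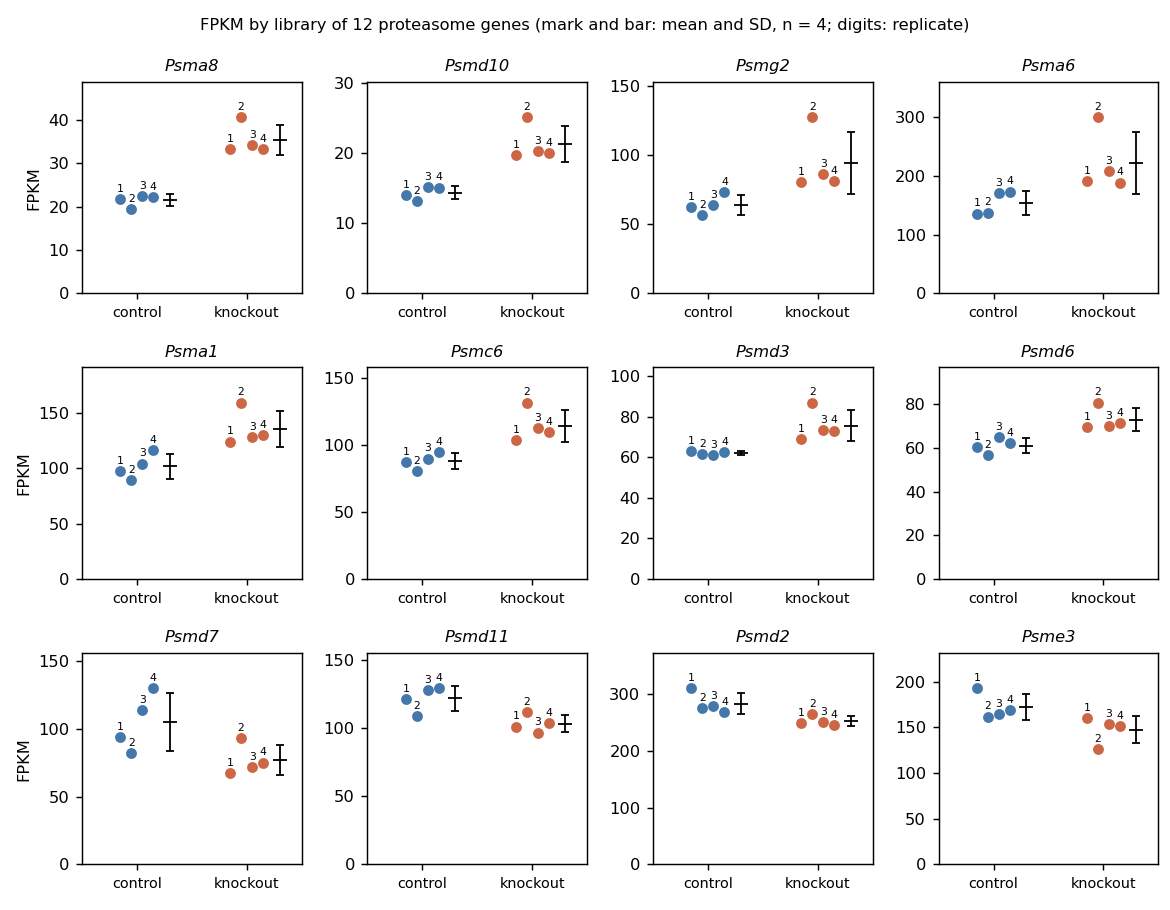
FPKM of 12 members in each library, marked by replicate number, with marks and bars for mean and SD (n = 4 per group); each panel starts at 0 and has its own scale. In the 8 panels of genes that rose all knockouts lie above all controls and replicate 2 is the highest, while Psmd7 and Psmd11 overlap the controls only through that library and Psmd2 and Psme3 lie below the controls.

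None of the 4 activators nor the inhibitor was called, where 25.3% of all genes rose and 12.1% fell. Psme1 and Psme2 form an interferon-inducible cap, Psme3 forms a nuclear cap, and Psme4 is the large activator PA200, known for its part in histone degradation in spermatids. Control means ran from 23.7 FPKM for Psme4 to 172.0 for Psme3. Psme3 was at 192.9, 161.9, 164.2 and 169.2 FPKM in the controls and at 159.8, 126.4, 153.3 and 151.1 in the knockouts. Every knockout lay below every control, by a small margin, and replicate 2 was the lowest. The change missed the threshold with all 4 knockouts (log2 change -0.22, SE 0.10, adjusted p = 0.111) and without knockout replicate 2 (-0.15, adjusted p = 0.146). It passed with median-ratio scaling (-0.34, adjusted p = 0.0375). With equal FPKM totals the log2 change was 0.50 and the gene was not called (adjusted p = 0.0704).

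Psme1 was at 83.1, 95.3, 109.8 and 106.6 FPKM in the controls and at 88.6, 135.0, 108.9 and 90.5 in the knockouts (log2 change 0.09, SE 0.15, adjusted p = 0.676). Its partner Psme2 was at 132.6, 139.8, 163.9 and 169.7 and at 123.8, 184.9, 151.4 and 143.6 (log2 change -0.01, SE 0.13, adjusted p = 0.951). In both, knockout replicate 2 was the highest library and the groups otherwise shared their range; without it their log2 changes were -0.04 and -0.11. Psme4 was at 25.3, 25.8, 21.4 and 22.2 FPKM and at 29.1, 21.9, 26.0 and 26.7 (log2 change 0.12, SE 0.10, adjusted p = 0.387). Here knockout replicate 2 was among the low libraries; the other 3 knockouts lay above all controls, with a log2 change of 0.20 (adjusted p = 0.0899). Psmf1, an inhibitor of the core, was at 19.4, 17.6, 22.2 and 20.5 FPKM and at 20.8, 20.3, 22.4 and 21.6 (log2 change 0.09, SE 0.09, adjusted p = 0.420), with overlapping groups, and without knockout replicate 2 its log2 change was 0.11.

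The 7 assembly chaperones help to build the core and the base and are not part of the finished particle. Of these, Psmd10 and Psmg2 rose, where 25.3% of all genes rose. Control means of the chaperones were lower than those of most subunits, from 11.8 FPKM for the core chaperone Psmg3 to 71.9 for the base chaperone Psmd5. The median log2 change of 0.29 was the highest of the roles with several members, and it was 0.18 with median-ratio scaling and 0.20 without knockout replicate 2.

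Psmd10, also called gankyrin, a chaperone of the base (ENSMUSG00000031429, chrX:140948429-140956728), was at 14.0, 13.1, 15.1 and 15.1 FPKM in the controls and at 19.8, 25.1, 20.3 and 20.03 in the knockouts. The groups lay far apart relative to their spread. It rose 1.48-fold, from 14.3 ± 0.941 to 21.3 ± 2.57 (log2 change 0.53, SE 0.10, adjusted p = 0.00237; 0.46 and 0.00112 without knockout replicate 2), and stayed called in every alternative run.

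Psmg2, which pairs with Psmg1 to assemble the alpha ring, was at 62.3, 56.4, 64.0 and 73.2 FPKM in the controls and at 80.7, 127.3, 86.2 and 81.4 in the knockouts. All knockouts lay above all controls, and replicate 2 stood far above the other 3. The rise was 1.47-fold, from 64.0 ± 6.98 to 93.9 ± 22.4 (log2 change 0.53, SE 0.15, adjusted p = 0.0228; 0.37 and 0.00896 without knockout replicate 2). The call was lost without control replicate 1, 2 or 3, at adjusted p of 0.0523 to 0.0652.

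Its partner Psmg1 was at 51.8 ± 4.58 and 64.1 ± 10.5 FPKM (log2 change 0.29, SE 0.12, adjusted p = 0.0796) and Psmg3 at 11.8 ± 1.88 and 17.2 ± 4.96 (0.48, SE 0.19, adjusted p = 0.0699). Neither passed, and the groups overlapped in both. Without knockout replicate 2 their log2 changes were 0.20 and 0.31 (adjusted p = 0.110 and 0.0987). Psmg4, Psmd5 and Psmd9 had log2 changes of 0.26, 0.16 and -0.05, and without that library of 0.08, 0.06 and -0.18.

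Psmc3ip, the recombination cofactor with the proteasome-like symbol, was at 19.5, 19.0, 20.5 and 21.3 FPKM in the controls and at 21.5, 33.6, 28.2 and 22.2 in the knockouts. The groups touched without overlapping, with knockout replicate 1 just above control replicate 4. The difference was not called (20.1 ± 1.001 and 26.4 ± 5.69, log2 change 0.35, SE 0.14, adjusted p = 0.0663; 0.23 and 0.0851 without knockout replicate 2), but the gene rose without knockout replicate 1 (adjusted p = 0.0313) or knockout replicate 4 (adjusted p = 0.04997).

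Genes that supply or control the proteasome were read from a list of 32, of which 27 were tested and the others are not analysed here. Of these 3 rose, 3 fell and 21 were not called, against the 25.3% and 12.1% of all genes given above. Those that fell include the segregase that extracts ubiquitylated proteins from complexes and membranes: Vcp was at 217.5, 202.3, 214.6 and 213.3 FPKM in the controls and at 161.6, 188.7, 166.0 and 166.7 in the knockouts (log2 change -0.31, SE 0.08, adjusted p = 0.0142). Its ubiquitin-binding cofactor Nploc4 was at 69.1, 64.5, 59.8 and 57.2 and at 53.7, 47.6, 49.8 and 50.6 (log2 change -0.31, SE 0.08, adjusted p = 0.0161). In both genes all knockouts lay below all controls, and with equal FPKM totals, where the median of all genes was 0.74, both had a log2 change of 0.41 and neither was called. The other cofactor of that complex, Ufd1l, was at 49.0 ± 4.21 and 51.7 ± 1.76 FPKM, a difference that did not pass (adjusted p = 0.477).

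AI314180, the gene of the proteasome adaptor ECM29, fell from 79.3 ± 8.03 to 64.3 ± 7.09 FPKM (log2 change -0.30, SE 0.10, adjusted p = 0.0481), close to the threshold. Without single libraries its adjusted p ran from 0.0140, without knockout replicate 2, to 0.134, and the call held only without control replicate 4 or knockout replicate 2. With equal FPKM totals its log2 change was 0.42 and it was not called. Usp14, a ubiquitin-removing enzyme that binds the base, rose from 91.6 ± 2.62 to 108.3 ± 3.78 (log2 change 0.24, SE 0.07, adjusted p = 0.0200), and with median-ratio scaling it was not called (0.12, adjusted p = 0.149). Usp14 was not called without control replicate 3, knockout replicate 3 or knockout replicate 4 (adjusted p = 0.0539 to 0.0648).

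Among the known controllers of proteasome genes, Ngly1, the enzyme that removes sugar chains from Nfe2l1 and so allows its activation, rose. It was at 5.14, 4.68, 4.67 and 4.97 FPKM in the controls and at 6.98, 6.08, 6.99 and 7.03 in the knockouts (log2 change 0.40, SE 0.08, adjusted p = 0.00525). The groups did not overlap, and knockout replicate 2 was the lowest knockout. The call was lost when small RNAs were removed and libraries rescaled (adjusted p = 0.169). All 6 calls of the list held without knockout replicate 2, with an adjusted p of 0.00153 for Vcp. Nfe2l1 was listed at 45.3, 0, 0 and 47.5 FPKM in control replicates 1 to 4 and at 38.2, 40.7, 42.4 and 38.9 in the knockouts; an exact 0 beside such levels can be a failed estimate, and no difference is drawn from it. Nfe2l2 was at 33.3 ± 1.26 and 35.3 ± 2.23 (log2 change 0.08, adjusted p = 0.420), and Pomp, the maturation factor of the core, at 173.4 ± 31.5 and 213.3 ± 57.8 (log2 change 0.28, adjusted p = 0.277; 0.11 and 0.556 without knockout replicate 2).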

How the data were processed

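The authors deposited 1 table of FPKM in 45550 rows, each a transcript entry, and 8 columns, each a library. The submitters' processing notes name mm10, TopHat, Bowtie, Cufflinks and Cuffdiff; versions, annotation, filters and the strand setting are not stated there. Estimated FPKM depend on a library total, so abundant RNAs shift all genes, and fragments shared by pseudogenes, overlapping genes or transcripts are divided by the software.

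Entries were summed to 17589 genes by identifier. Those averaging 1 FPKM or more were tested on log2(FPKM + 1), pseudocount 1, with limma 3.58.1 in R 4.3.3 (trend, group only, two-sided) and called where the Benjamini-Hochberg adjusted p was under 0.05 over all genes tested. Log2 changes understate low genes; folds are ratios of means. Ratios used an exact permutation test with a pseudocount of 0.1. The fit was tested on simulated data. Depth was inferred from 2615 single-entry genes and only describes precision; 73.7% to 81.3% of low values were whole to within 0.1 fragment.

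The members, roles, lists and motifs were chosen with earlier results of these data known. Named genes were Kdm1a, every called member, the immunoproteasome, tissue-specific, activator, inhibitor and non-proteasomal genes, the highest and lowest of each role, up to 8 called pathway genes, Nfe2l1, Nfe2l2 and Pomp; the values of 1 gene that this rule names are not reported here. Psma3, Psma7, Psmb3, Psmb6, Psmb7, Psmd7, Psmd11, Psmd14, Psmc2, Psmd4, Psma5, Psmc3, Psmc5, Zbtb16, Sall4, Ufd1l and the uncalled chaperones were named after their values were seen. Sequences come from RefSeq, positions and lengths from GENCODE M21. Alternatives changed pseudocount, filter, scaling, small RNAs, limma trend, replicate block, transcript entry, zeros and each library; the fit without knockout replicate 2 and with median-ratio scaling was added after seeing the data.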

Additional observations from a re-analysis of the deposited data

Results flagged for a closer look

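In 7 of 56 groups of 4 libraries examined, 1 library lay far from the other 3 by Dixon's test. Chance alone marks about 1 in 20 independent groups, but these groups are genes read in the same libraries and are not independent. In 5 of them it was the highest value of knockout replicate 2: Psmd10 at 25.1 FPKM, Psmg2 at 127.3, Psma6 at 300.5, Psmd6 at 80.8 and Psma8 at 40.6. The same library was the lowest knockout for Ngly1, at 6.08. Control replicate 3 had the highest Kdm1a of the controls, at 92.0 FPKM.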

How the results depend on the processing

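Psma8 and Psmd10 rose in every alternative run. Over all genes, 2164 rose with a mean filter of 5 FPKM and 2242 with small RNAs removed; rises and falls numbered 2633 and 2448 with median-ratio scaling, 2655 and 2648 with quantile normalization, and 9549 and 151 with equal totals, and 2925 fell without knockout replicate 2 and with median-ratio scaling. Leaving out single libraries gave 2658 to 3855 rises and 1170 to 2025 falls. Of the members, 42 rose with equal totals, 2 with the replicate block (Psma8 and Psmd10; 22.1% of all genes rose and 10.4% fell), 12 with quantile normalization (19.7% of all genes) and 3 to 10 without single libraries. Members that fell, with the share of all genes that fell, numbered 1 with no filter (11.4%), the most abundant transcript entry (10.4%) and zeros as missing (12.2%), 3 with quantile normalization (19.6%) and small RNAs removed (13.5%), 4 with median-ratio scaling (18.2%), 13 without knockout replicate 2 and with median-ratio scaling (21.7%), and 0 to 3 without single libraries. Of the pathway genes, 24 rose and 0 fell with equal totals, 1 rose with the replicate block, and 1 to 4 rose and 2 to 3 fell without single libraries. With equal totals the log2 changes of Psme2, Vcp, Nploc4 and AI314180 were 0.71, 0.41, 0.41 and 0.42. Those of Psmd2, Psmd7, Psmd11 and Psme3 were 0.56, 0.28, 0.48 and 0.50. Without single libraries the log2 change of Kdm1a was -2.02 to -1.72, and those of the ratios were 0.67 to 0.85 (Psma8 to Psma7), -0.49 to -0.28 (Psmb10 to Psmb7) and -0.22 to 0.27 (Psmb9 to Psmb6). From the most abundant entries alone the log2 ratios of Psma8 to Psma7 and Psmb9 to Psmb6 differed by 0.74 and -0.28 (exact permutation test, adjusted p = 0.0429 for both). Where not stated, the cause of these changes was not tested. After group means were removed, libraries with the same replicate number had pair correlations of 0.22, -0.12, -0.13 and -0.09. Differently numbered libraries were not compared, so these values cannot decide whether the numbers mark shared litters or days. The ratio of Psmb8 to Psmb5 was not run.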

Other observations

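For Psma3 most of the FPKM, and for Psmb4, Psmd13 and Psmc3ip (described above) a large share of it, was assigned to entries that the annotation does not class as protein-coding. Psma3, an alpha subunit of the core, was at 6.64 ± 1.40 FPKM (SD, n = 4) in protein-coding entries and at 121.1 ± 12.4 in the others in the controls. In the knockouts these values were 16.7 ± 11.1 and 142.4 ± 19.1, with the protein-coding entries at 8.27, 32.4, 9.58 and 16.5 in replicates 1 to 4 against 5.35 to 8.62 in the controls. The most abundant Psma3 entry was classed as nonsense-mediated decay, at 74.5 ± 7.62 and 86.9 ± 11.2. Psmb4, the core subunit gene with the highest control mean, was at 154.4 ± 26.1 and 171.6 ± 52.7 in protein-coding entries and at 109.7 ± 19.1 and 104.8 ± 23.6 in the others. Psmd13, a lid subunit, was at 66.8 ± 6.58 and 75.2 ± 25.8, and at 60.4 ± 5.42 and 60.6 ± 5.57. The latter values include an entry that has no class in the annotation, at 12.8 ± 1.71 and 8.17 ± 6.63. These classes were not tested.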
